A study of Mus musculus with 12 samples.

Results

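Of the 55376 gene symbols in the count table, 8 were examined, namely Lmnb1, Hmgb1, Hmgb2, Hmga1, Hmga1b, Hmga2, Tbx2 and Tbx3. These 8 genes were chosen by name, as a lamin, high mobility group (HMG) proteins and T-box repressors that are linked to cell senescence. They were followed in RNA-Seq of 12 samples of live O1+ CD45- oligodendrocytes sorted from C57BL/6 mouse brains at postnatal day 40. WT mice gave 4 samples, and 4 each came from Cnp-Cre Jab1fl/fl mice (Jab1 mutants) and Cnp-Cre Jab1fl/fl p21CIP1-/- mice (double mutants), with 2 brains in each sample. In both mutants the Cre recombinase was driven by the Cnp promoter, which is active in oligodendrocytes and in Schwann cells, so Jab1 was deleted in those lineages, whereas the double mutants carried the p21CIP1-/- alleles (gene Cdkn1a) in all their cells. No sample carried the p21 deletion alone. The p21 allele had been made in another mouse strain and crossed onto this one.

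Lamin B1 is a structural protein of the nuclear lamina that holds heterochromatin at the nuclear edge, and its loss is a widely used mark of senescent cells. HMGB1 and HMGB2 bend DNA without regard to its sequence, and HMGB1 leaves the nucleus and acts as an alarm signal when cells senesce or die. HMGA1 and HMGA2 bind the minor groove of A/T-rich DNA and are building blocks of the heterochromatin foci of senescent cells, whereas TBX2 and TBX3 are repressors that were first linked to senescence because they can shut down CDK inhibitor genes.

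The samples held 61485556 to 153495112 counts, with a median of 103095817. Genotypes were checked on the targeted genes. Cops5, the gene of Jab1, lay at 46.3 to 134 CPM (counts scaled to library size) in WT, 44.9 to 89.0 in Jab1 mutants and 44.2 to 90.4 in double mutants, so the 3 genotypes overlapped. Its log2 fold change in Jab1 mutants as compared with WT was -0.62 (SE 0.36, adjusted p = 0.349, edgeR). Cdkn1a was at 16.0 to 85.4 CPM in WT, 379 to 636 in Jab1 mutants and 64.7 to 103 in double mutants, and its rise in Jab1 mutants passed the test (log2 fold change 3.44, SE 0.53, adjusted p = 0.00440, edgeR). In double mutants all 4 Cdkn1a values lay above 3 of the 4 WT samples, with a log2 fold change of 1.08 (SE 0.48, unadjusted p = 0.0474, adjusted p = 0.394, edgeR). Against WT the counts thus did not show the loss that the label names. Against Jab1 mutants Cdkn1a lay lower in double mutants, at -2.355 (SE 0.32, unadjusted p = 1.55e-05, adjusted p = 0.0916, edgeR). Those 2 genotypes did not overlap, as was so for 3.22% of all genes. By qPCR of sorted oligodendrocytes the authors reported Cdkn1a as undetectable in double mutants. Counts over a whole gene do not single out a deleted part, so neither gene's total checks the genotype labels here. The summed level of 10 oligodendrocyte markers was 45452 to 105469 CPM in WT, 8962 to 35104 CPM in Jab1 mutants and 16848 to 52603 CPM in double mutants. Markers of other cell types were also present in all 12 samples. In bulk RNA a smaller share of a cell type and less RNA of a gene per cell cannot be told apart.

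Hmga1b is a single-exon gene of 1626 bp (GRCm38 chr11:120762794-120764419, + strand), whereas Hmga1 has 5 exons (chr17:27556497-27563674, + strand). The Hmga1b transcript was aligned to the Hmga1 transcript most like it over 1602 bp with 99.813% identity, 3 mismatches and 0 gaps, and the coding sequences of 321 bp were the same at all 321 positions. The 3 mismatches lie in the 3′ UTR and are A736G, A863G and G1325T, with the Hmga1 base first, the Hmga1b base last and positions counted from 1 at the start of that 1681-bp Hmga1 transcript. They are the only places in the aligned stretch where a read can tell these 2 transcripts apart without a splice junction, and they are therefore shown as windows of 29 bases from the reference transcripts, 5′ to 3′, with the differing base in capitals.
Hmga1 (chr17:27562715-27562743, + strand): ttagccgcagcccgAcctgctgcgcacct
Hmga1b (same window, difference at position 120763450 of chromosome 11): ttagccgcagcccgGcctgctgcgcacct
Hmga1 (chr17:27562842-27562870, + strand): ccttaaggggccccAgccccatctcactc
Hmga1b (same window, difference at position 120763577 of chromosome 11): ccttaaggggccccGgccccatctcactc
Hmga1 (chr17:27563304-27563332, + strand): ggttgtgttgttttGtttttgttccatgt
Hmga1b (same window, difference at position 120764039 of chromosome 11): ggttgtgttgttttTtttttgttccatgt
How reads that match both copies were counted is not given in the sources used here, so the split between the 2 genes is uncertain and their sum is given beside each.

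Levels in WT oligodendrocytes were ranked per length, as mean CPM per kb of exon. Hmgb1 led with 73.6 CPM per kb, followed by Hmgb2 with 20.9, Hmga1 with 2.83, Lmnb1 with 0.77, Tbx3 with 0.63, Tbx2 with 0.35, Hmga1b with 0.053 and Hmga2 with 0.0028. The spread over samples of the order's neighbours was wide for Lmnb1, Tbx3 and Tbx2, whose CPM ranges in WT ran from 1.07 to 4.65, 1.33 to 5.08 and 0.24 to 2.29. A gene was tested where 4 or more of the 12 samples reached 1 CPM, and 7 of the 8 genes passed. Hmga1b passed only through the double mutants, since 0 of the 8 other samples reached 1 CPM, and Hmga2 did not pass.

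**Figure D1:**
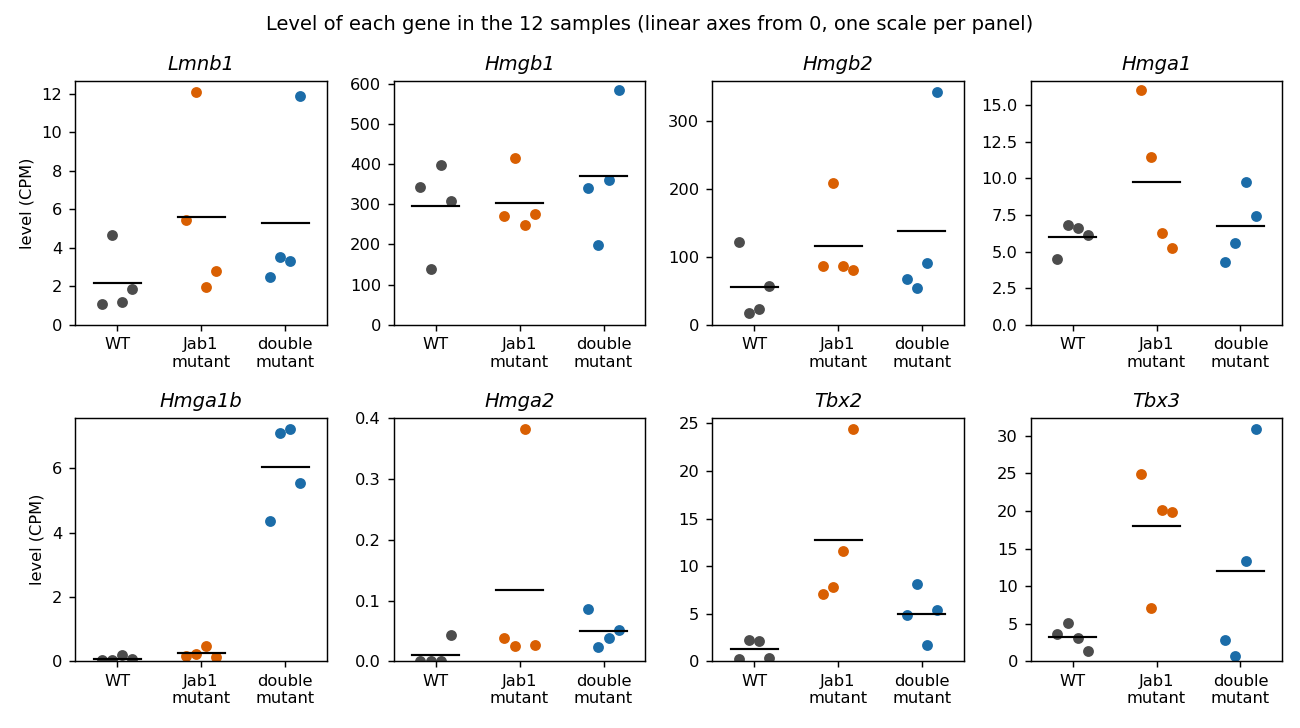
Level of each of the 8 genes in CPM (y axis, linear from 0, with a scale of its own in each panel) in WT, Jab1-mutant and double-mutant samples. Points are the 4 samples of a genotype and lines are their means. Tbx2 and Tbx3 were higher in all 4 Jab1-mutant samples than in any WT sample, and Hmga1b lay above 4 CPM in double mutants alone.

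In Jab1 mutants as compared with WT, Tbx2 and Tbx3 rose, while Lmnb1, Hmgb1, Hmgb2, Hmga1 and Hmga1b did not pass the test. The 2 genes called were 2 of the 7 tested, beside 7.64% of all 17716 genes tested (1354 genes) and 5.19% called higher (919 genes). In the same comparison 2 of the 7 genes had samples that did not overlap between the genotypes, beside 17.1% of all genes. Tbx2 reached 1 CPM in 2 of the 4 WT samples and in all 4 of each mutant, so it passed the filter only with mutant samples. Its call and its lack of overlap are therefore no support for a difference beyond the values themselves. Tbx3 reached 1 CPM in all 4 WT samples.

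TBX3 is a T-box repressor of development that also shuts down CDK inhibitor genes. Tbx3 (chr5:119670669-119684724) was at 3.63, 5.08, 3.12 and 1.33 CPM in WT, at 24.9, 7.16, 20.1 and 19.8 CPM in Jab1 mutants and at 2.81, 0.77, 13.4 and 30.9 CPM in double mutants. All 4 Jab1-mutant samples lay above the WT samples, with the second the lowest of them, whereas double mutants ran from below WT to above every Jab1 mutant. The mean rose from 3.29 ± 1.55 CPM in WT to 18.0 ± 7.61 in Jab1 mutants (SD, n = 4), a log2 fold change of 2.45 (SE 0.58, adjusted p = 0.0290, edgeR). In double mutants the mean was 11.96 ± 13.8 CPM (SD, n = 4), with a log2 fold change from WT of 1.86 (SE 0.96, adjusted p = 0.470, edgeR). This value was 0.78 without double-mutant replicate 5 and 0.84 with limma-voom.

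TBX2 is the closest relative of TBX3 and shares its DNA-binding domain. Tbx2 (chr11:85832551-85841948) was at 0.24, 2.29, 2.17 and 0.33 CPM in WT, at 7.12, 7.86, 11.6 and 24.4 CPM in Jab1 mutants and at 4.88, 8.10, 1.69 and 5.36 CPM in double mutants. The lowest Jab1 mutant lay above the highest WT sample, and 3 of the 4 double-mutant samples did as well. Mean levels were 1.25 ± 1.13 CPM in WT and 12.8 ± 8.00 in Jab1 mutants (SD, n = 4), and the log2 fold change was 3.34 (SE 0.89, adjusted p = 0.0434, edgeR). In double mutants the mean was 5.01 ± 2.62 CPM (SD, n = 4), with a log2 fold change from WT of 1.98 (SE 0.95, adjusted p = 0.434, edgeR), or 3.24 with limma-voom.

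Both calls stood close to the threshold. The Tbx2 call was lost when any 1 of WT replicates 1, 3, 5 and 6 or Jab1-mutant replicates 1, 3 and 4 was left out, and the Tbx3 call without any 1 of WT replicates 1, 5 and 6 or Jab1-mutant replicates 1, 3 and 4. Over the 8 fits with 1 sample left out, the log2 fold change stayed between 2.80 and 3.80 for Tbx2 (adjusted p = 0.0413 to 0.126, edgeR) and between 2.19 and 2.73 for Tbx3 (adjusted p = 0.0118 to 0.0784, edgeR). 

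**Figure D2:**
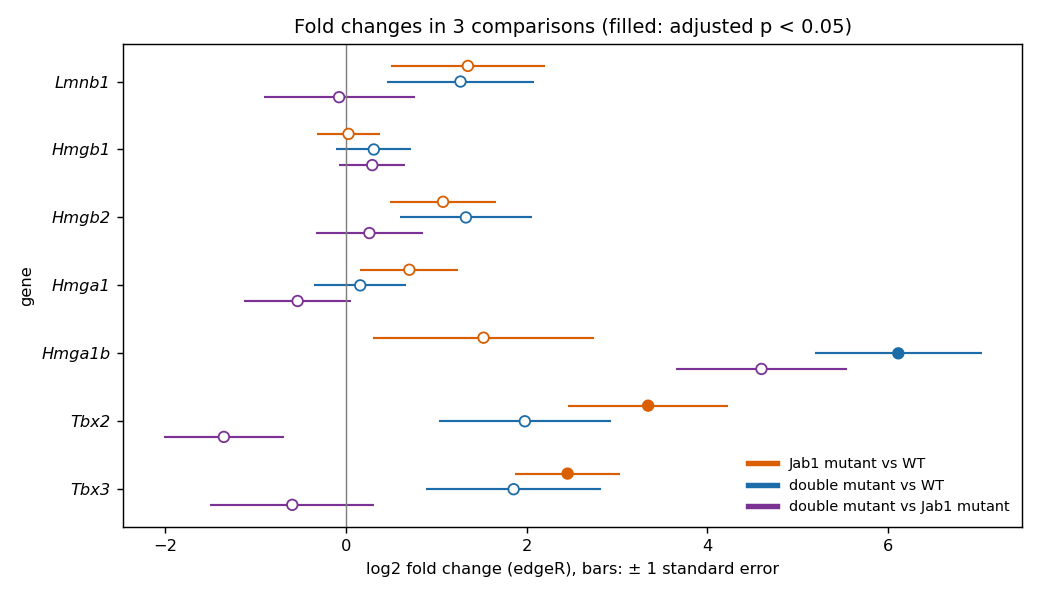
Log2 fold change (x axis) of the 7 genes that passed the filter (y axis) in Jab1 mutants versus WT (orange), double mutants versus WT (blue) and double mutants versus Jab1 mutants (purple), with bars of 1 standard error. Filled points passed an adjusted p of 0.05 in edgeR: Tbx2 and Tbx3 in Jab1 mutants versus WT, and Hmga1b in double mutants versus WT.

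Markers of vessel cells and of the choroid plexus moved beside the T-box genes. The summed CPM of 8 endothelial markers was 362 to 925 in WT and 974 to 6604 in Jab1 mutants. There 7 of the 8 were called higher, beside 5.19% of all genes. Of 8 mural markers (pericytes and smooth muscle), 4 were called higher, with sums of 277 to 477 CPM in WT and 969 to 1719 CPM in Jab1 mutants. Of 6 choroid plexus and ependyma markers, 2 were called higher, and their sums went from 286 to 4067 CPM in WT to 6445 to 24466 CPM in Jab1 mutants. All 12 microglia markers were called higher, with sums of 94.97 to 263 CPM in WT and 1007 to 2479 CPM in Jab1 mutants, and 0 of 5 fibroblast markers were called, with sums of 24.6 to 137 and 90.9 to 397 CPM. No gene of these 5 lists was at 0 counts in all samples of any genotype.

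Sample by sample, Tbx3 was high where the endothelial sum was high, and this was not particular to the endothelial list. The samples with Tbx3 at 13.4 CPM or more also had the highest mural sums (1003 CPM or more, against at most 969 CPM in the others). The same held for the choroid plexus and ependyma sums (11309 CPM or more against at most 7270 CPM) and the microglia sums (1760 CPM or more against at most 1007 CPM). The 3 Jab1-mutant samples with Tbx3 at 19.8 to 24.9 CPM had endothelial sums of 3179 to 6604 CPM, and the fourth, with Tbx3 at 7.16 CPM, had a sum of 974 CPM. The 2 double-mutant samples with Tbx3 at 2.81 and 0.77 CPM had sums of 732 and 913 CPM, and the 2 with 13.4 and 30.9 CPM had sums of 4189 and 7521 CPM. Tbx2 did not share this order, since its lowest double-mutant value of 1.69 CPM came with an endothelial sum of 4189 CPM and its highest of 8.10 CPM with a sum of 913 CPM. What part the markers' cells had in either T-box gene was not tested.

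**Figure D3:**
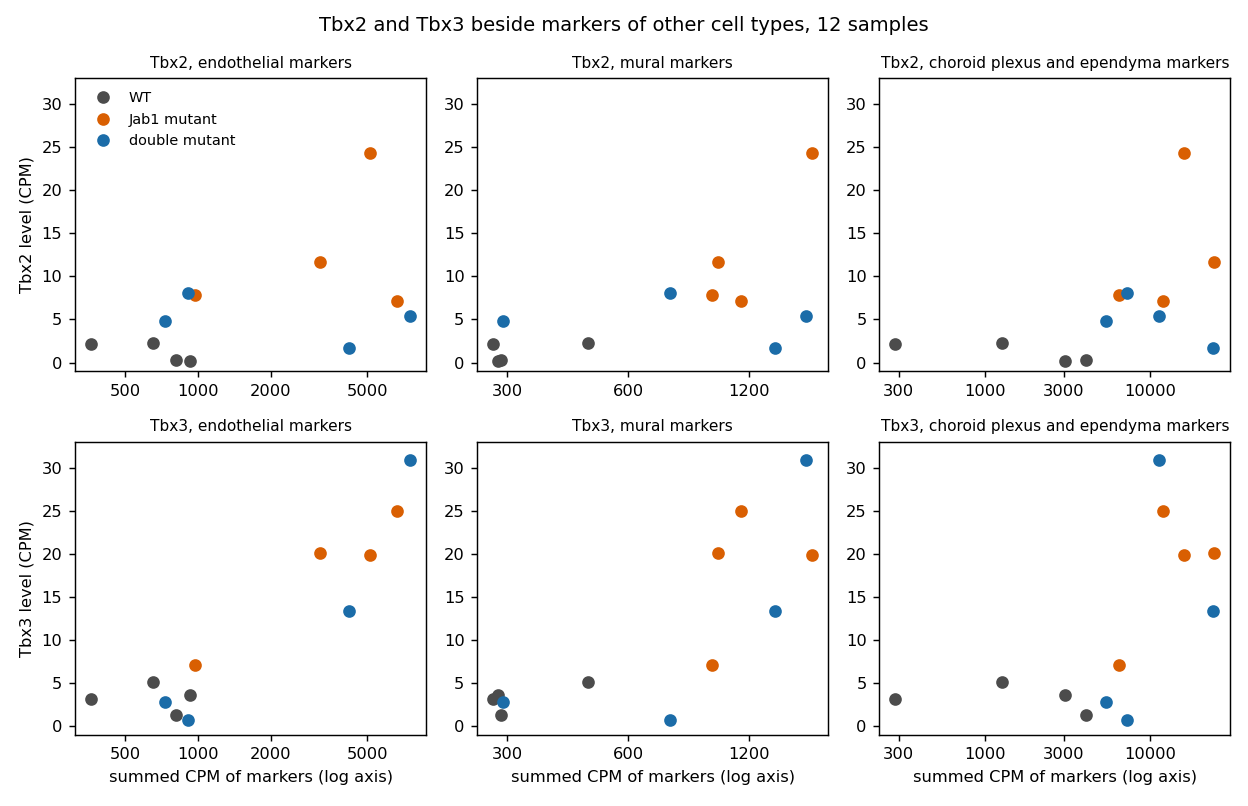
Level of Tbx2 (top) and Tbx3 (bottom) in CPM (y axis, linear) against the summed CPM of 8 endothelial, 8 mural and 6 choroid plexus and ependyma markers (x axis, log scale), with 1 point per sample coloured by genotype. Tbx3 above 10 CPM was seen only in the 5 samples with endothelial sums of 3179 CPM or more, which also had the highest mural and choroid plexus sums. Tbx2 was highest, at 24.4 CPM, in a Jab1 mutant with an endothelial sum of 5131 CPM.

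Among all genes tested, Arhgap31 and Tcf7 had the pattern most like Tbx3 over the 12 samples (Pearson r of log2(CPM + 1) 0.955 for both), and Nlrc5 and Zc3h18 the pattern most like Tbx2 (r = 0.914 and 0.900). Tbx2 and Tbx3 themselves had an r of 0.490. These correlations are descriptions over samples that share genotype and cell makeup. On the other strand, the span of the noncoding Tbx3os1 overlaps that of Tbx3. It was at 0.10 to 1.44 CPM in WT and 6.14 to 22.4 CPM in Jab1 mutants, a log2 fold change of 4.09 (SE 0.89, adjusted p = 0.0197, edgeR). Whether reads were counted by strand is not given in the sources used here, and no exon of the 2 genes overlaps in the annotation.

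The other T-box genes and known targets of TBX2 and TBX3 were taken as lists. Of 15 other T-box genes, 5 were tested and 1 was called in Jab1 mutants as compared with WT, beside 7.64% of all genes. This was Tbx1, a regulator of pharyngeal and vessel development, at 2.88 to 8.69 CPM in WT and 13.0 to 55.7 CPM in Jab1 mutants (log2 fold change 2.44, SE 0.52, adjusted p = 0.0177, edgeR). The list's median log2 fold change was 0.80, beside 0.024 for all genes tested, and Tbx18, a mural cell factor, had 0.84 (adjusted p = 0.771, edgeR). Of 6 target genes, 4 were tested. The list's median log2 fold change in Jab1 mutants was 1.37, with 2 genes above 0 and 2 below. The only one called was Cdkn1a. Cdkn2b, a CDK inhibitor that TBX2 can repress, was at 0.42 to 3.24 CPM in WT and 3.70 to 25.4 CPM in Jab1 mutants without passing the test (log2 fold change 2.89, adjusted p = 0.0656, edgeR). Ndrg1, a stress-responsive gene that TBX2 can repress, was at 556 to 1314 CPM in WT and 145 to 502 CPM in Jab1 mutants (-1.44, SE 0.44, unadjusted p = 0.00742, adjusted p = 0.0746, edgeR). Its samples did not overlap between the genotypes, as was so for 17.1% of all genes. Neither list had a call in the other comparisons, where the median log2 fold changes from WT in double mutants were 0.01 for T-box genes and 0.38 for targets, beside 0.00 for all genes.

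Lmnb1 did not pass the test in either mutant, and its fitted values lay above WT in both. Lmnb1 (chromosome 18) was at 1.07, 4.65, 1.17 and 1.86 CPM in WT, at 5.46, 12.1, 1.95 and 2.78 CPM in Jab1 mutants and at 2.46, 3.54, 3.33 and 11.9 CPM in double mutants. The 3 genotypes overlapped, and 1 sample of each mutant stood above the rest. Mean levels were 2.19 ± 1.68, 5.58 ± 4.61 and 5.30 ± 4.41 CPM (SD, n = 4). The log2 fold changes from WT were 1.35 in Jab1 mutants (SE 0.85, adjusted p = 0.394, edgeR) and 1.27 in double mutants (SE 0.81, adjusted p = 0.561, edgeR), and a change was not detectable with this spread. Single samples moved these values, to 0.63 without Jab1-mutant replicate 2 and 2.01 without WT replicate 3 in Jab1 mutants, and to 0.50 without double-mutant replicate 5 and 1.94 without WT replicate 3 in double mutants.

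Of 13 other genes of the nuclear lamina and its membrane partners, 1 was called higher in Jab1 mutants as compared with WT and none lower. Among all genes 7.64% were called, and the list's median log2 fold change was 0.38. The list's called gene was Syne2, which encodes a nesprin that ties the nucleus to the cytoskeleton. It was at 47.6 to 80.3 CPM in WT and 101 to 188 CPM in Jab1 mutants (log2 fold change 1.30, SE 0.31, adjusted p = 0.0284, edgeR). In double mutants it was at 74.4 to 120 CPM (0.47 from WT, adjusted p = 0.536, edgeR). Zmpste24, the protease that matures prelamin A, was at 49.99 to 101 CPM in WT and 13.0 to 42.1 CPM in Jab1 mutants (-1.25, adjusted p = 0.0878, edgeR). In double mutants as compared with WT 0 of the 13 were called, beside 0.192% of all genes, and the median was -0.51.

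Hmgb1 was the most abundant of the 8 genes per length and did not pass the test in any comparison. It was at 342, 139, 397 and 308 CPM in WT, at 270, 416, 247 and 277 CPM in Jab1 mutants and at 340, 199, 359 and 585 CPM in double mutants. The ranges of all 3 genotypes overlapped. The means were 297 ± 111, 303 ± 76.6 and 371 ± 159.5 CPM (SD, n = 4). The log2 fold change in Jab1 mutants as compared with WT was 0.03 (SE 0.35, adjusted p = 0.972, edgeR) and that in double mutants 0.31 (SE 0.41, adjusted p = 0.805, edgeR). These counts measure RNA and say nothing of where in the cell the HMGB1 protein was.

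HMGB2, the close relative of HMGB1, is made mainly in dividing cells. Hmgb2 (chr8:57511907-57515999) was at 122, 16.9, 23.2 and 57.4 CPM in WT, at 86.8, 209, 86.2 and 80.7 CPM in Jab1 mutants and at 67.4, 54.2, 90.7 and 343 CPM in double mutants. The genotypes overlapped because the first WT sample lay above 3 of the 4 Jab1 mutants. The log2 fold change from WT was 1.08 in Jab1 mutants (SE 0.58, adjusted p = 0.310, edgeR) and 1.33 in double mutants (SE 0.73, adjusted p = 0.495, edgeR). In Jab1 mutants it was 0.62 without Jab1-mutant replicate 2 and 1.83 without WT replicate 1, and in double mutants 0.35 without double-mutant replicate 5 and 2.08 without WT replicate 1. With limma-voom it was 0.72 and 0.79.

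The same 2 samples were highest for Lmnb1, Hmgb1 and Hmgb2 in their genotypes, namely Jab1-mutant replicate 2 and double-mutant replicate 5. They also had the highest sums of 19 proliferation genes, 844 and 825 CPM against 270 to 321 and 241 to 403 CPM in the other samples of their genotypes, and of 8 neuron markers, 757 and 742 CPM against 239 to 277 and 231 to 323 CPM. What part these features had in the 3 genes was not tested. Without both samples, the log2 fold changes of Hmgb2 between double and Jab1 mutants went from 0.26 (SE 0.60, adjusted p = 1.0, edgeR) to -0.26 (adjusted p = 0.888, edgeR). Among all genes the patterns most like Lmnb1 were those of Oip5, a centromere factor, and Gm13573 (r = 0.900 and 0.898), and those most like Hmgb2 were Gm4739 and the tubulin gene Tubb5 (r = 0.976 and 0.969). Hmgb1 was most like Drg1 and Txndc17 (r = 0.972 and 0.963). Among the 8 genes themselves, Hmgb1 and Hmgb2 had an r of 0.694, and Lmnb1 and Hmgb2 one of 0.543, each over 12 samples.

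Of the 19 proliferation genes all 19 were tested, and 1 was called in Jab1 mutants as compared with WT, beside 7.64% of all genes. This was Mki67, at 2.51 to 14.1 CPM in WT and 21.7 to 49.9 CPM in Jab1 mutants (log2 fold change 2.30, SE 0.53, adjusted p = 0.0253, edgeR). The fitted value was above 0 for 19 of 19 genes in both mutants, with medians of 0.67 and 0.92, beside 0.024 and 0.00 for all genes tested. Top2a, which untangles DNA in dividing cells, had 1.45 (adjusted p = 0.133, edgeR).

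The count table also lists 14 retrocopies and pseudogenes of the HMG genes, 13 of them named for Hmgb1, and the 5 that passed the filter are all copies of Hmgb1. Of these 5, 3 were called higher in Jab1 mutants as compared with WT, beside 5.19% of all genes. Hmgb1 itself was not called. Hmgb1-ps8 and Hmgb1-rs16 passed the filter only through the mutants, since 0 WT samples reached 1 CPM. Hmgb1-ps5, with 3 WT samples at 1 CPM, also needed mutant samples to pass. These 3 calls are therefore no support for a difference beyond the values themselves. Hmgb1-ps8 (chr10:22262742-22263367, - strand) was at 0.20, 0.05, 0.28 and 0.77 CPM in WT, at 46.8, 14.2, 49.5 and 50.99 CPM in Jab1 mutants and at 3.51, 6.27, 6.03 and 11.4 CPM in double mutants. The 3 genotypes did not overlap, with double mutants between the others. The log2 fold change from WT was 6.97 in Jab1 mutants (SE 0.86, adjusted p = 0.00179, edgeR) and 4.38 in double mutants (SE 0.97, adjusted p = 0.102, edgeR).

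Hmgb1-rs16 (chr9:104169199-104169811, - strand) rose from 0.41 to 0.98 CPM in WT to 6.03 to 42.4 CPM in Jab1 mutants (log2 fold change 4.84, SE 0.70, adjusted p = 0.00366, edgeR). In double mutants it was at 1.88 to 9.996 CPM (2.70, adjusted p = 0.221, edgeR). Hmgb1-ps5 (chr3:95530418-95530974, + strand) rose from 0.39 to 2.53 CPM in WT to 13.6 to 37.6 CPM in Jab1 mutants (3.97, SE 0.64, adjusted p = 0.00538, edgeR), and was at 3.69 to 9.97 CPM in double mutants. Hmgb1-ps6 and Hmgb1-ps7 had 1.87 and 0.04 (adjusted p = 0.225 and 0.986, edgeR).

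Of the 5 copies, 4 lie in an intron of another gene on its strand, Hmgb1-ps5 in Ctss, Hmgb1-ps6 in Senp5, Hmgb1-ps8 in Gm26740 and Hmgb1-rs16 in Dnajc13, and Hmgb1-ps7 lies in an intron of Vmn2r59 on the other strand. Ctss, the cathepsin S gene of microglia, rose in Jab1 mutants (log2 fold change 4.14, SE 0.65, adjusted p = 0.00491, edgeR). It was at 72.1 to 3511 CPM in double mutants, where the sample at 3511 CPM had Hmgb1-ps5 at 7.33 CPM. Gm26740 had 4.87 (SE 1.65, adjusted p = 0.103, edgeR). Dnajc13 was at 18.9 to 43.9 CPM in WT and 18.6 to 56.1 CPM in Jab1 mutants, with a log2 fold change of 0.12 (SE 0.43, adjusted p = 0.907, edgeR). Of the reads counted on Hmgb1 and its 13 copies together, the copies held 1.66% to 3.64% in WT, 8.95% to 33.2% in Jab1 mutants and 4.74% to 8.15% in double mutants. As with Hmga1b, the assignment of reads that match several copies is uncertain.

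**Figure D4:**
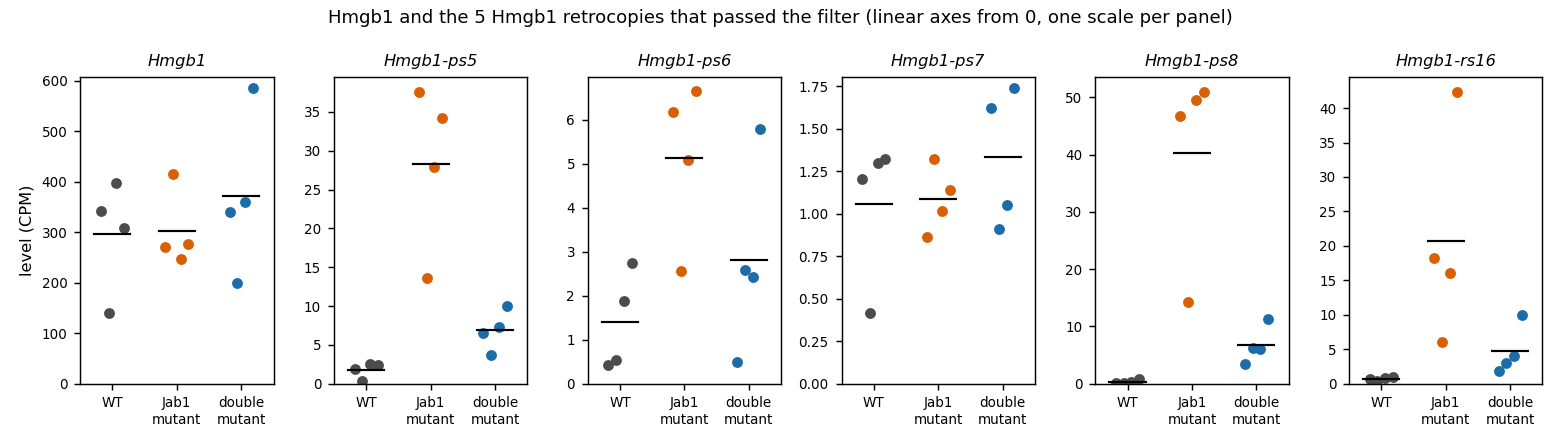
Level in CPM (y axis, linear from 0, with a scale of its own in each panel) of Hmgb1 and of the 5 Hmgb1 retrocopies that passed the filter, in the 4 samples of each genotype (points) with their means (lines). Hmgb1 overlapped between genotypes at 139 to 585 CPM, whereas Hmgb1-ps5, Hmgb1-ps8 and Hmgb1-rs16 lay higher in all 4 Jab1 mutants than in any WT sample.

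HMG proteins outside the 8 and the binding partners of HMGB1 were taken as lists too. Of 8 HMG relatives 7 were tested and 1 was called in Jab1 mutants as compared with WT, beside 7.64% of all genes. The list's median log2 fold change was 0.92. Hmg20b, a subunit of the histone demethylase complex around LSD1, was at 10.3 to 20.8 CPM in WT and 23.9 to 67.8 CPM in Jab1 mutants (1.86, SE 0.40, adjusted p = 0.0178, edgeR). Hmgn1, a nucleosome-binding protein, had 0.98 (adjusted p = 0.165, edgeR). Of 11 receptors and binding proteins of HMGB1, 8 were tested and 1 was called. Cxcl12, a chemokine that forms a complex with HMGB1 and is abundant in vessel cells, was at 26.3 to 69.8 CPM in WT and 87.1 to 514 CPM in Jab1 mutants (2.86, SE 0.53, adjusted p = 0.00966, edgeR). The lowest Jab1-mutant value was in replicate 2. That sample had the lowest endothelial, mural, choroid plexus, microglia and fibroblast sums of its genotype. Cd24a, a surface protein that binds HMGB1, had 1.57 (adjusted p = 0.105, edgeR), and the list's median was 1.76.

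Hmga1 was the third gene in level and did not pass the test in any comparison. It was at 4.48, 6.81, 6.59 and 6.13 CPM in WT, at 16.1, 11.5, 6.27 and 5.24 CPM in Jab1 mutants and at 4.25, 5.58, 9.73 and 7.44 CPM in double mutants. In Jab1 mutants, 2 samples lay above all WT samples and the others within the WT range. The log2 fold change from WT was 0.70 in Jab1 mutants (SE 0.54, adjusted p = 0.496, edgeR) and 0.16 in double mutants (SE 0.51, adjusted p = 0.933, edgeR), and the first was 0.35 without Jab1-mutant replicate 1. BC035044 and Stum had the pattern most like it (r = 0.882 and 0.881). The exons of Hmga1 overlap those of AI413582 and Gm49774 on the other strand, and reads from there cannot be told apart without a count by strand. AI413582 was at 50.8 to 132 CPM in WT and had a log2 fold change of -0.48 in Jab1 mutants (adjusted p = 0.467, edgeR).

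Hmga1b was near 0 in WT and Jab1 mutants, at 0.053 and 0.153 CPM per kb, and reached 3.72 CPM per kb in double mutants, beside 3.18 CPM per kb for Hmga1. Counts of Hmga1b were 5, 7, 19 and 6 in WT, 13, 27, 32 and 10 in Jab1 mutants and 409, 895, 741 and 530 in double mutants. All 4 double-mutant samples lay far above the other 8. In CPM the means were 0.086 ± 0.069, 0.249 ± 0.152 and 6.06 ± 1.36 (SD, n = 4). The log2 fold change of double mutants as compared with WT was 6.11 (SE 0.92, adjusted p = 0.0404, edgeR), and Hmga1b was the 1 gene called of the 7 tested, beside 0.192% of all genes (34 of 17716) and 0.175% called higher. Of the 7 genes, 1 had samples that did not overlap in this comparison, beside 8.10% of all genes. As the gene entered the test only through its double-mutant samples, the call supports nothing about the 7 genes as a group. The call was lost without any 1 sample but double-mutant replicate 1, while the log2 fold change stayed between 5.90 and 6.84 (adjusted p = 0.0237 to 0.148, edgeR).

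In double mutants as compared with Jab1 mutants, 0 of the 7 genes were called, beside 0% of all 17716 genes in edgeR, where 885 genes had an unadjusted p under 0.05 and DESeq2 called 87. Hmga1b had a log2 fold change of 4.599 (SE 0.95, adjusted p = 0.454, edgeR) and was the 1 of the 7 genes whose samples did not overlap, beside 3.22% of all genes. DESeq2 called it where edgeR did not. Here too the gene was tested only because of its double-mutant samples, so neither the call nor the lack of overlap is support for a difference beyond the values themselves. Tbx2 and Tbx3 had -1.35 and -0.59 (SE 0.66 and 0.91, adjusted p = 0.974 and 1.0, edgeR). Lmnb1, Hmgb1 and Hmga1 had -0.07, 0.29 and -0.53 (SE 0.83, 0.36 and 0.59), none of them called.

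The share of Hmga1b in the summed Hmga1 and Hmga1b counts was 1.002%, 0.66%, 2.78% and 1.05% in WT, 1.02%, 1.92%, 6.97% and 2.5% in Jab1 mutants and 50.7%, 56.0%, 42.6% and 42.7% in double mutants. Double mutants did not overlap with either other genotype. The mean share was 1.37% ± 0.95 in WT, 3.10% ± 2.65 in Jab1 mutants and 48.0% ± 6.53 in double mutants (SD, n = 4). Double mutants exceeded WT by 46.6 and Jab1 mutants by 44.9 percentage points (two-sided exact permutation test, p = 0.0286 for each, the smallest that 70 relabelings of 4 against 4 samples allow, and 0.0429 after Benjamini-Hochberg adjustment over the 3 comparisons). Both tests reuse the Hmga1b counts that were seen to be apart in double mutants, so they are no support for a difference beyond the values themselves. Between Jab1 mutants and WT the shares differed by 1.73 points (exact permutation test, p = 0.286 before and after adjustment).

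**Figure D5:**
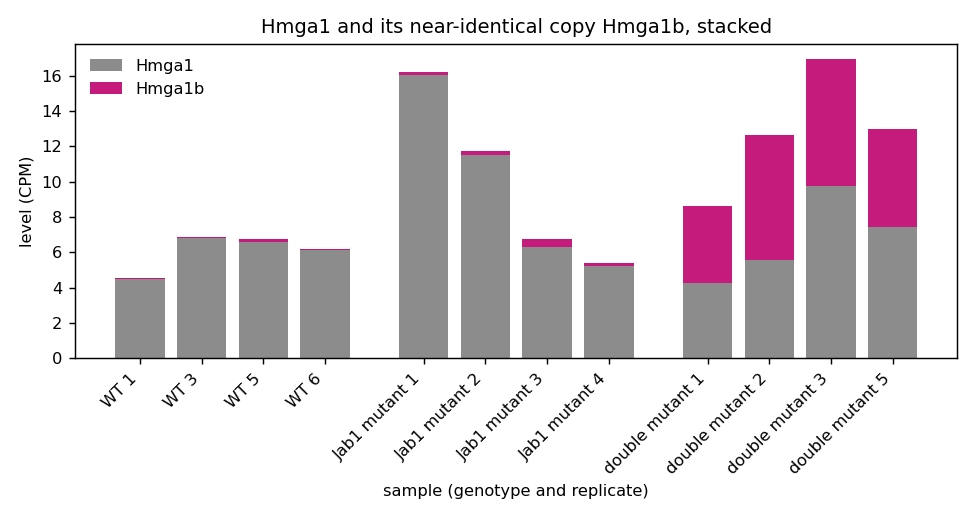
Stacked level of Hmga1 (grey) and Hmga1b (magenta) in CPM (y axis, from 0) in each of the 12 samples (x axis, genotype and replicate number). Hmga1b made up 42.6% to 56.0% of the summed counts in the 4 double mutants and at most 6.97% in the other samples.

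With the 2 rows added together, the level was 4.53, 6.86, 6.77 and 6.199 CPM in WT, 16.2, 11.7, 6.74 and 5.37 CPM in Jab1 mutants and 8.62, 12.7, 16.95 and 12.99 CPM in double mutants. All double-mutant samples lay above all WT samples and within or above the Jab1-mutant range. Such a lack of overlap with WT was seen for 8.10% of all genes. The sum holds the Hmga1b counts already seen to be apart, whereas Hmga1 alone overlapped between double mutants and WT. The separation of the sum is therefore no support for a difference beyond the values themselves. The summed level of double mutants as compared with WT had a log2 fold change of 1.06 (SE 0.44, unadjusted p = 0.0345, adjusted p = 0.349, edgeR), and that of Jab1 mutants 0.72 (SE 0.53, adjusted p = 0.479, edgeR). Double mutants differed from Jab1 mutants by 0.35 (SE 0.52, adjusted p = 1.0, edgeR). Over the 12 samples Hmga1b was most like Pon1 and Gm13443 (r = 0.967 and 0.912). Hmga1 lies 1.53 Mb from Cdkn1a on chromosome 17, and Hmga1b lies on chromosome 11. Since all 4 double-mutant samples and no others carry the p21 allele, effects of p21 loss and of the chromosome segment that came with the allele cannot be told apart.

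Hmga2, the HMGA gene of embryonic cells, was at the limit of detection. It had 0, 0, 0 and 4 counts in WT, 3, 3, 26 and 2 counts in Jab1 mutants and 8, 3, 4 and 5 counts in double mutants, which is at most 0.38 CPM. Only the third Jab1-mutant sample stood above the rest. On the log2(CPM + 1) scale, Jab1 mutants exceeded WT by 0.13 (two-sided exact permutation test, p = 0.114) and double mutants exceeded WT by 0.05 (p = 0.0857, same exact test), and double mutants differed from Jab1 mutants by -0.08 (p = 0.857, same exact test), and none passed a threshold of 0.05 before adjustment. Of 6 genes of the HMGA2 axis, 2 were tested and 0 were called in any comparison. Igf2bp2, an RNA-binding protein under HMGA2, was at 0.07 to 0.91 CPM in WT and 0.37 to 3.51 CPM in Jab1 mutants (log2 fold change 2.16, SE 1.23, adjusted p = 0.333, edgeR), and its relative Igf2bp3 had 0.96 (adjusted p = 0.603, edgeR).

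Of 20 heterochromatin genes all 20 were tested. They include the histone chaperones and methyltransferases that act with the HMGA proteins. In Jab1 mutants as compared with WT 1 of them was called, beside 7.64% of all genes. Cbx1, which encodes the heterochromatin protein HP1 beta, was at 22.2 to 52.8 CPM in WT and 67.9 to 127 CPM in Jab1 mutants (log2 fold change 1.21, SE 0.33, adjusted p = 0.0491, edgeR). In double mutants it was at 30.4 to 58.8 CPM (0.17 from WT, adjusted p = 0.882, edgeR). Ezh2, the methyltransferase of H3K27, was at 16.3 to 24.9 CPM in WT and 32.2 to 45.2 CPM in Jab1 mutants without passing the test (0.93, adjusted p = 0.0875, edgeR). The fitted value was above 0 for 18 of the 20 genes in Jab1 mutants, with a median of 0.40, and for 12 of 20 in double mutants, with a median of 0.15. The summed CPM of the list was 945 to 1210 in WT, 1491 to 2077 in Jab1 mutants and 1142 to 1678 in double mutants.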

How the data were processed

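The authors amplified RNA of sorted oligodendrocytes (SMART-Seq v4), and per the submitters' processing notes reads were trimmed (Trimmomatic 0.32), aligned to GRCm38 (STAR 2.5.3a) and counted with featureCounts. The deposited table holds their raw counts for each gene symbol, without scaling. Strand and multi-mapping settings are not given in the sources used here. Of 55376 symbols, 98.2% were matched to 1 GENCODE M21 gene.

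Here, CPM used TMM factors of all 12 samples. The test was edgeR 4.0.16 (R 4.3.3), quasi-likelihood, on the 8 samples compared, over the 17716 genes that reached 1 CPM in 4 or more of the 12 samples, with Benjamini-Hochberg adjustment over all of them and a threshold of 0.05. Hmga2 and the Hmga1b share were given exact permutation tests (pseudocount 1 CPM). Transcripts were aligned with blastn 2.17.0. DESeq2 1.42.0, limma 3.58.1 and leaving out samples were alternatives. The edgeR script was tested on simulated data.

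The genes and lists were chosen with earlier results of these data known. Named were the 8 genes, Cops5 and Cdkn1a, the called genes of each list (or its 2 with the smallest p in Jab1 mutants versus WT where fewer than 2 were called), the 2 genes most like each of the 8, and retrocopies that passed the filter. Ndrg1 and genes next to or hosting these were named after their values were seen. Replicates are different pairs of brains. A result for another list gene is not reported here.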

Additional observations from a re-analysis of the deposited data

Results flagged for a closer look

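In 6 of the 30 sets of 4 samples checked, 1 value lay farther from its nearest neighbour than the 95% limit of Dixon's test allows. Chance gives about 1 in 20 for normal values, a rate that does not apply to sets with counts near 0, such as Hmga1b in WT and Hmga2, which hold 3 of the 6. Double-mutant replicate 5 was far above its group for Lmnb1 (11.9 CPM) and Hmgb2 (343 CPM), and Jab1-mutant replicate 2 for Hmgb2 (209 CPM). These 2 samples also had the highest proliferation and neuron marker sums of their genotypes. WT replicate 5 was the highest of its group for Hmga1b (0.188 CPM, 19 counts). For Hmga2, WT replicate 6 (0.043 CPM, 4 counts) and Jab1-mutant replicate 3 (0.382 CPM, 26 counts) stood apart.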

How the results depend on the processing

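The direction of Tbx2, Tbx3 and Hmga1b in the comparisons where they were called held under all alternatives run, but the calls did not. Of the 7 genes tested, the number called in Jab1 mutants versus WT fell from 2 to 0 without a filter on low counts, to 1 with a mean of at least 10 CPM (which leaves out Tbx2) and to 1 in a fit of all 12 samples, and was 0 to 2 with 1 sample left out. In double mutants versus WT it fell from 1 to 0 with limma-voom, without the filter, with the 10 CPM mean (which leaves out Hmga1b) and was 0 to 1 with 1 sample left out. Leaving out the samples of highest proliferation sums was chosen after seeing the data. Each comparison with WT holds 1 of these 2 samples, so there it is the same fit as leaving out Jab1-mutant replicate 2 (2 genes called) or double-mutant replicate 5 (0 called), and it is a further alternative only between the mutants. DESeq2 called 1 gene, Hmga1b, in double versus Jab1 mutants where edgeR called 0. For those fits other than the 10 CPM mean and those with fewer samples, the cause was not tested.

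With the replicate number as a block, 0 of the 7 genes were called in each comparison, against 2, 1 and 0. The numbers are not known to pair samples, since same-numbered samples correlated at -0.188 to 0.083. In 3 same-numbered pairs the Hmga1b share of double mutants exceeded WT by 43.8 and Jab1 mutants by 46.4 points, where 3 pairs cannot give an exact p below 0.25. The block also turned double versus Jab1 mutants to -0.06 for Hmgb1 and -0.73 for Hmgb2.

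Values not called turned sign in these further cases. Hmgb1 in Jab1 mutants versus WT was -0.16 with limma-voom, -0.07 without the filter and -0.22 to 0.20 with 1 sample left out, with -0.17 without Jab1-mutant replicate 2. In double mutants versus WT, Hmgb1 was -0.00018 to 0.51 with 1 left out, the lowest without double-mutant replicate 5, and Hmga1 was -0.06 to 0.33 with 1 left out. In double versus Jab1 mutants, Lmnb1 was 0.07 with limma-voom and -0.84 to 0.64 with 1 left out, Hmgb1 -0.02 to 0.50, Hmgb2 -0.71 to 0.71 (and -0.26 without both samples of highest proliferation sums), and Hmga2 -0.116 to 0.0276 on its log2 scale.

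Over all genes, counts called changed with the tool. DESeq2 called 2689, 862 and 87 genes in the 3 comparisons, against 1354, 34 and 0 with edgeR. Without a filter edgeR called 859 and 20, the 10 CPM mean gave 140 and 5 in the last 2 comparisons, the 12-sample fit 164 in double mutants versus WT, and the block 660 and 1 in the first 2. With 1 sample left out the counts were 678 to 1863, 1 to 274 and 0 to 2, and limma-voom called 1 in the last comparison. At 61485556 counts or more per sample, depth bears most on Hmga2 and, outside double mutants, on Hmga1b.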
